A study of Mus musculus with 12 samples.

Results

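The Fos and Jun genes and Atf3 encode the best known subunits of the transcription factor AP-1, and 7 of them, Fos, Fosb, Fosl2, Jun, Junb, Jund and Atf3, were followed here in the cortex of mouse embryos with a conditional knockout of Egfr, the epidermal growth factor receptor gene. They were chosen by gene name, which picks 7 of the 55357 genes in the deposited count tables, and all 7 were above the filter on low counts in each comparison. RNA was measured at the late embryonic stage E17.5 in cerebral cortex dissected together with the hippocampal formation and divided into a rostral and a caudal portion. In knockout embryos both Egfr alleles were floxed, and Cre came from a transgene under Nestin control, which is active in progenitors of the nervous system. Control embryos were labelled EgfrF/+, with 1 floxed and 1 intact allele, and whether they carried Cre is not given in the sources used here. The 4 groups were knockout caudal, control caudal, knockout rostral and control rostral, with 3 libraries each, and the titles assign the 12 libraries to 6 embryos, numbered 5, 2 and 7 for knockout and 1, 3 and 9 for control. A second number in the titles, whose meaning the labels do not give, is shared by knockout embryo 5 and control embryo 1, and another by the other 4 embryos. Both genotypes therefore carry a floxed allele, and cells that do not descend from Nestin-expressing progenitors, such as microglia, are not reached by this Cre.

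AP-1 is a pair of basic leucine zipper proteins bound to DNA. Fos proteins cannot pair with themselves and need a Jun partner, Jun proteins pair with Fos, with one another or with factors of the ATF family, and Atf3 joins Jun proteins or acts alone, often as a repressor. Fos, Fosb, Jun, Junb and Atf3 are immediate early genes. Growth factor receptors such as Egfr act on them through the Ras and ERK kinases, neuronal activity acts through calcium and the factor CREB, and the handling of tissue can also induce them. Jund is present in most resting cells, and Fosl2 follows the early members with a delay.

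Egfr separated the genotypes in each library, at 3.60 to 7.33 counts scaled to a library total of 1000000 (CPM) in the 6 knockout and 19.2 to 41.6 CPM in the 6 control libraries. The pairing by title was not borne out by other transcripts. Xist and Y chromosome transcripts matched between the 2 libraries of an embryo in 1 of 6 titled embryos, and the control rostral libraries 1 and 3 held both kinds. Nr2f1, whose product marks the caudal side of the developing cortex, was higher in the caudal library in 4 of 6 titled embryos. Libraries were kept in the groups their labels give, so "caudal" and "rostral" below mean labelled so, and the members' fold changes and correlations that use those 2 control libraries are given with and without them. Counts over lists of genes and counts of groups without overlap are given with them only. Totals ran from 25223733 to 30383672 counts, and mitochondrial genes took 7.25% of them in knockout rostral library 7, 4.77% in knockout caudal library 5 and 1.96% to 3.53% elsewhere. Markers of cortical excitatory neurons summed to between 1871 and 2990 CPM per library, and choroid plexus markers to between 0.488 and 57.4 CPM. In bulk tissue, fewer cells of a type and less RNA per cell cannot be told apart.

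Per kilobase of transcript, Jund stood highest, at 139.8 ± 35.9 CPM per kb over the 12 libraries (SD, n = 12), with a range of 89.6 to 209.9. Fos followed at 67.05 ± 36.9 and Jun at 52.1 ± 16.7 CPM per kb, and these 2 neighbours differed by less than their spread. Fosb averaged 14.6 ± 9.05 and Junb 8.71 ± 2.54 CPM per kb, again with overlapping ranges. Atf3 averaged 3.34 ± 1.42 and Fosl2 1.95 ± 1.38 CPM per kb, also with overlapping ranges. The highest library exceeded the lowest 15.3-fold for Fosl2, 14.04-fold for Fosb and 7.67-fold for Fos, against 3.996-fold for Atf3, 2.99-fold for Jun, 2.81-fold for Junb and 2.34-fold for Jund. Without control rostral libraries 1 and 3 the order was the same, with 147.6 ± 34.1 CPM per kb for Jund, 69.8 ± 39.1 for Fos, 54.3 ± 17.1 for Jun, 15.97 ± 9.31 for Fosb, 8.80 ± 2.73 for Junb, 3.53 ± 1.48 for Atf3 and 1.71 ± 1.30 for Fosl2 (SD, n = 10). The lowest count of any member in a library was 83.5, that of Fosl2 in knockout caudal library 2, and Atf3 had 93 to 354 counts per library.

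**Figure D1:**
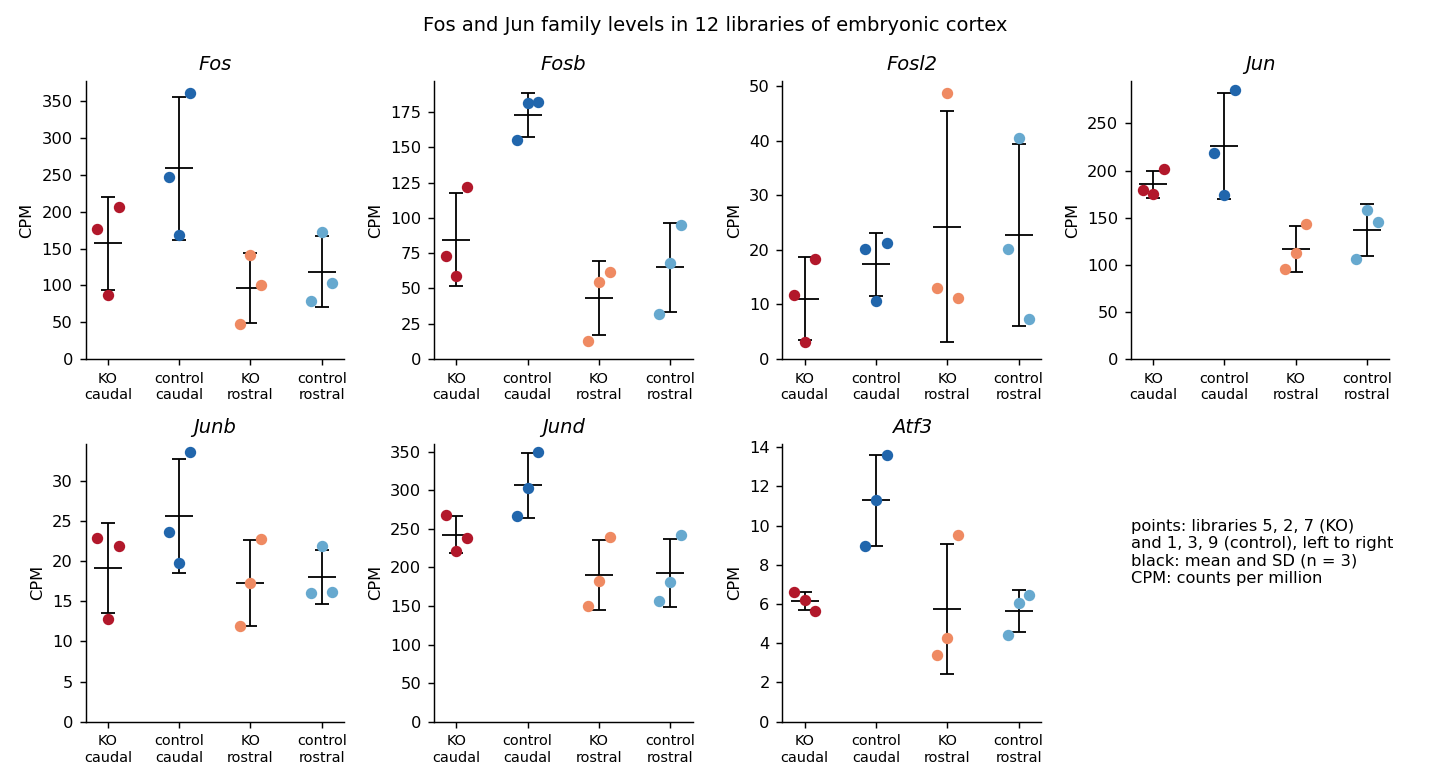
CPM of the 7 genes (y axis, linear, from 0) in the knockout and control libraries of each labelled part (x axis); points are single libraries, black lines the mean and SD (n = 3). In caudal libraries the knockout points of Fosb (59.1 to 121.7 CPM) and Atf3 (5.66 to 6.62 CPM) lie below all control points, whereas Fosl2 is scattered in every group.

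The promoters of the members are described next as sequence alone. Whether their motifs go with the members' levels was not tested. RefSeq promoter windows (build GRCm38.p6), which span 250 bases before and 50 bases after each RefSeq start, were matched by symbol for 7 of 7 members and searched on both strands. The 250 upstream bases of 5 members follow, 5′ to 3′ on the gene's strand, with TGACG, the core of the cAMP response element (CRE) to which CREB binds, or TATAAA, the TATA box, in capitals; CGTCA is TGACG on the opposite strand. They lie at chr12:85473640-85473889 (Fos, plus strand), chr7:19310046-19310295 (Fosb, minus strand), chr8:84978749-84978998 (Junb, minus strand), chr1:191183334-191183583 (Atf3, minus strand) and chr4:95052223-95052472 (Jun, minus strand).
Fos: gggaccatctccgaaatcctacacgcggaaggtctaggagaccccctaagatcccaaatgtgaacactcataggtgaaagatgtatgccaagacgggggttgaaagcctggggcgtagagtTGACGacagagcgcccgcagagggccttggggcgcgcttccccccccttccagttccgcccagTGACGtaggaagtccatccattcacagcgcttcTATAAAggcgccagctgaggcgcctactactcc
Fosb: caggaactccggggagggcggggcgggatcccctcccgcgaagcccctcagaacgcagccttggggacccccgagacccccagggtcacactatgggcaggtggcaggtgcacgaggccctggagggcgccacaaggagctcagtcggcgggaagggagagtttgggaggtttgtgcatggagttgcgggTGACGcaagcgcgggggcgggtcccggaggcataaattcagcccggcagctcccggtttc
Junb: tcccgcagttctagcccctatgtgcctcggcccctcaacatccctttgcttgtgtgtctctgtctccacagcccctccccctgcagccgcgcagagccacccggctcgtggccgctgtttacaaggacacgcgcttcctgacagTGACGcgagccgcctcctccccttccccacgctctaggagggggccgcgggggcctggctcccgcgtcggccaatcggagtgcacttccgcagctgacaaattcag
Atf3: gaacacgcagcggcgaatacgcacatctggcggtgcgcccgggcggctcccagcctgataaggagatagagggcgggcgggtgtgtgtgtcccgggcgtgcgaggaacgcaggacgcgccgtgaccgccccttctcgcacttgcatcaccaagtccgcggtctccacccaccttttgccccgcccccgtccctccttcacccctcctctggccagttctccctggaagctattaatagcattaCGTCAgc
Jun: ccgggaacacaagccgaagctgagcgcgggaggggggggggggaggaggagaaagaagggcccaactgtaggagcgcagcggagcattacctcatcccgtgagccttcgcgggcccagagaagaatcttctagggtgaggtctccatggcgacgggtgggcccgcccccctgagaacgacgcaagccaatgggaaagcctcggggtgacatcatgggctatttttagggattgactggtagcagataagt

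The CRE core was found in 4 of the 7 windows, against 20.8% of the 32851 RefSeq promoters of the same length. Counted from the RefSeq start, Fos held it from -129 to -125 and from -66 to -62, Fosb from -60 to -56 and Junb from -106 to -102. Atf3 held it on the opposite strand from -7 to -3. TATAAA was found in 2 windows, from -33 to -28 in Fos and from 1 to 6 in Junb, just past the stretch printed above, against 13.6% of all promoters. The nearest GENCODE start for Junb lay 30 bases downstream of its RefSeq start, so that TATAAA lay upstream of the GENCODE start. The full palindrome TGACGTCA, which contains the core, was in 0 of the 7 windows and 1.79% of all promoters. The AP-1 site TGANTCA was in 0 windows and 7.81% of promoters, and the CArG box of the serum response factor in 0 windows and 1.63%. The Jun, Fosl2 and Jund windows held none of the motifs, and the nearest GENCODE start for Jund lay 1210 bases downstream of the RefSeq start, while that for Fosl2 lay at -299, so those 2 windows may not be the promoters read in these cells. A match describes letters and not a bound site. Motifs more than 250 bases upstream, among them a CArG box, could not be found in these windows, so 0 matches do not show that a gene lacks one.

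**Figure D2:**
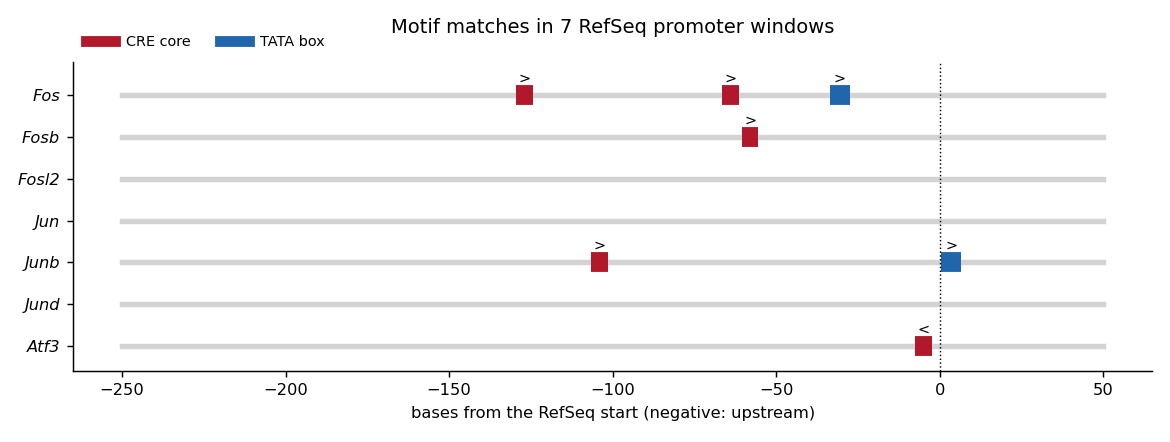
Motif matches in the 7 RefSeq promoter windows, by distance from the RefSeq start in bases (x axis) and gene (rows); red blocks are the CRE core, blue blocks the TATA box, and arrows give the strand of the motif. Fos carries 2 CRE cores and a TATA box, and Junb carries 1 CRE core and a TATA box. Fosb and Atf3 carry 1 CRE core each, and Fosl2, Jun and Jund carry neither motif.

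The first comparison was that of Egfr knockout with control in the caudal libraries. All 7 members averaged lower in the knockout, where 50.4% of all genes had that sign, and Fosb and Atf3 did so without overlap between the groups, but 0 of 7 passed the adjusted test of edgeR, which called 8 of 16964 genes (0.0472%). Fosb and Atf3 stood at 49.4% and 54.9% of control. At an unadjusted p under 0.05, 3 of the 7 were lower, against 3.13% of all genes, and 2 of 7 did not overlap, against 6.14% of all genes. The median log2 fold change of the 7 was -0.63, and that of all genes -0.00125. Of the 7, 6 varied together across libraries, as described further on. Counts of members by sign, here and below, are thus not separate observations.

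Among the Fos proteins, Fosb (GRCm39 chromosome 7, 19036621 to 19043976) separated best. It stood at 73.0, 59.1 and 121.7 CPM in knockout caudal libraries 5, 2 and 7, against 155.2, 181.2 and 182.2 CPM in control caudal libraries 1, 3 and 9. The highest knockout library was thus below the lowest control library, and the means were 84.6 ± 32.9 CPM against 173 ± 15.3 CPM (SD, n = 3 each). Its log2 fold change was -1.02 (SE 0.26), with an edgeR p of 0.717 after Benjamini-Hochberg adjustment, at rank 139 of all genes tested. Gene counts add the full-length Fosb transcript and the shorter splice form that gives ΔFosB, which lacks part of the activation domain.

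Fos itself (chromosome 12, 85520664 to 85524047), the prototype of the family and a common marker of recently active neurons, varied more within each group. It stood at 177.2, 86.7 and 207.1 CPM in knockout caudal libraries 5, 2 and 7, against 247.6, 168.1 and 361.9 CPM in control caudal libraries 1, 3 and 9. The groups overlapped, since 2 knockout libraries were above control library 3. The log2 fold change was -0.71 (SE 0.39, edgeR adjusted p = 0.999992), and the exact two-sided permutation p of the mean CPM was 0.3, where 3 against 3 libraries cannot go below 0.1.

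Fosl2 (chromosome 5, 32293145 to 32315186), also known as Fra-2, stood at 11.6, 3.19 and 18.3 CPM in knockout caudal libraries 5, 2 and 7, against 20.2, 10.7 and 21.2 CPM in control caudal libraries 1, 3 and 9. Library 2 of the knockout and library 3 of the control were the lowest of their groups, as they were for Fos. The log2 fold change of -0.63 had an SE of 0.59 (edgeR adjusted p = 0.999992), and its interval of 2 SE ran from -1.81 to 0.55.

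The Jun proteins differed less. Jund (chromosome 8, 71151599 to 71153265), the member that restrains growth in many cell types, stood at 268.3, 221.4 and 237.8 CPM in knockout caudal libraries, against 266.3, 302.9 and 349.9 CPM in control caudal libraries. Knockout library 5 lay just above control library 1, and the log2 fold change was -0.33 (SE 0.13, edgeR adjusted p = 0.957). Jun (chromosome 4, 94937271 to 94940459), the strongest activator of the 3 Jun proteins, stood at 179.2, 175.5 and 201.7 CPM in knockout libraries, against 218.3, 174.1 and 285.4 CPM in control libraries. Control library 3 was the lowest of all 6, and the log2 fold change was -0.27 (SE 0.17, edgeR adjusted p = 0.999992). Junb (chromosome 8, 85701113 to 85705347), which can act against Jun, stood at 22.9, 12.8 and 21.9 CPM in knockout and 23.7, 19.7 and 33.5 CPM in control libraries, with overlap. Its log2 fold change was -0.41 (SE 0.27, edgeR adjusted p = 0.999992).

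Atf3 (chromosome 1, 190902493 to 190950236), a gene induced by cell stress and injury, stood at 6.62, 6.18 and 5.66 CPM in knockout caudal libraries 5, 2 and 7, against 8.95, 11.3 and 13.6 CPM in control caudal libraries 1, 3 and 9. The knockout libraries, with 145 to 201 counts, lay close together and all below the controls, with means of 6.15 ± 0.477 CPM against 11.3 ± 2.33 CPM (SD, n = 3 each). It had the smallest p of the 7 members, with a log2 fold change of -0.86 (SE 0.18, edgeR adjusted p = 0.483, rank 57). For Fosb and Atf3 the exact permutation p was 0.1, the smallest that 3 against 3 can give.

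The call depended on the tool, and the 2 alternatives that called members also called more genes than the main fit did. The Wald test of DESeq2 called 2 members lower in knockout caudal libraries, Fosb (adjusted p = 0.00725) and Atf3 (adjusted p = 0.0144). It called 71 genes in all, where the main fit called 8. Without the filter on low counts edgeR called Atf3 (adjusted p = 0.0354), again among more genes than in the main fit. No other alternative called a member here, and the fold changes of Fosb and Atf3 stayed negative when each replicate was left out in turn, from -1.38 to -0.81 for Fosb and from -1.01 to -0.70 for Atf3. The other 5 also stayed negative but moved further, and single libraries set their size. Without control replicate 9, Jun was at -0.0594, Junb at -0.16, Fos at -0.38 and Jund at -0.21. Without knockout replicate 2, Fosl2 was at -0.19, Junb at -0.18 and Fos at -0.41, and without knockout replicate 7 Fosl2 was at -1.21.

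**Figure D3:**
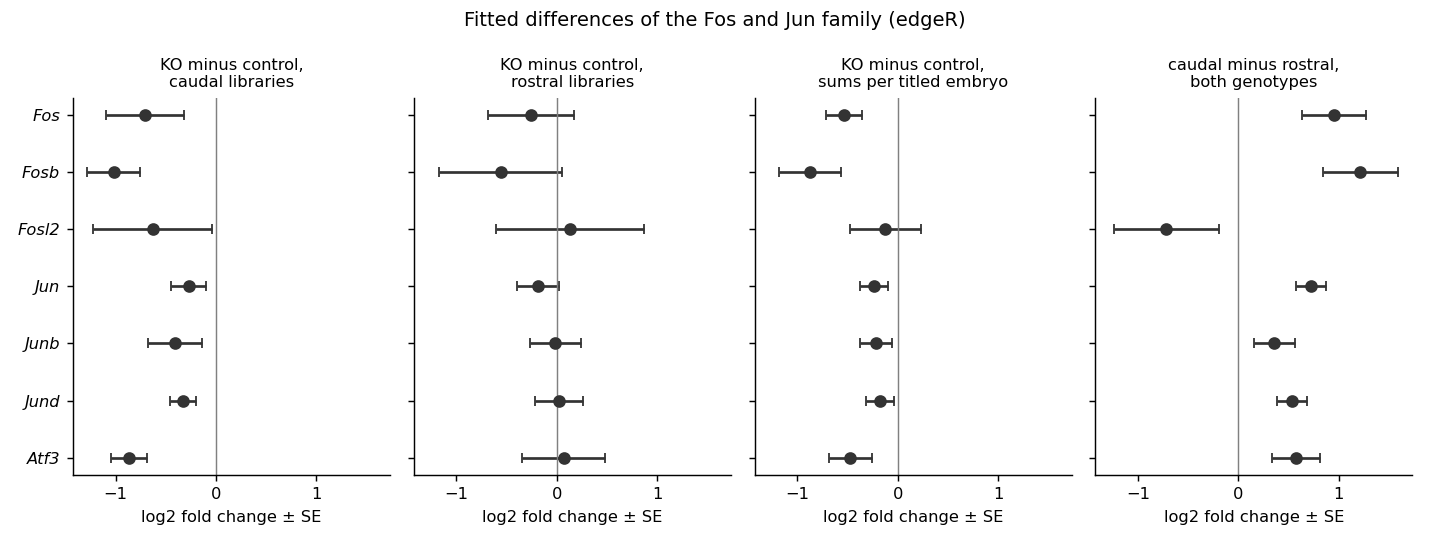
Log2 fold changes of the 7 genes (x axis, points) with 1 SE to each side, from edgeR, for knockout minus control in caudal libraries, in rostral libraries and in sums per titled embryo, and for caudal minus rostral over both genotypes. All 7 points lie below 0 in the caudal panel and in the panel of sums, whereas in the rostral panel the bars of all 7 reach 0.

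Markers of other cells also differed in the caudal comparison. Endothelial markers were lower in knockout for 8 of 8 genes and summed to 88.7 to 155.2 CPM, against 145.9 to 225.3 CPM in control. Meningeal fibroblast markers were lower for 6 of 6 tested genes (22.9 to 40.8 CPM against 42.1 to 91.0 CPM), and microglia markers for 6 of 8 (139.4 to 163.2 CPM against 163.9 to 195.7 CPM). Interneuron markers were lower for 8 of 8 genes (188.1 to 700.2 CPM against 346.7 to 854.7 CPM) and striatal markers for 9 of 9 (35.0 to 231.5 CPM against 67.6 to 349.7 CPM). Erythroid markers were lower for 7 of 8 (4240 to 8211 CPM against 5402 to 7463 CPM), pericyte markers for 5 of 6 (86.3 to 146.1 CPM against 121.8 to 147.8 CPM) and choroid plexus markers for 3 of 3 tested (0.488 to 9.71 CPM against 5.86 to 15.4 CPM). Cortical excitatory neuron markers were higher in knockout for 6 of 8 (2413 to 2971 CPM against 2347 to 2630 CPM) and radial glia markers for 5 of 8 (1563 to 1708 CPM against 1316 to 1775 CPM). Of these lists, 0 genes passed the adjusted edgeR test in caudal libraries, and 3 interneuron, 2 radial glia, 2 microglia and 1 meningeal marker had an unadjusted p under 0.05. No marker was at 0 in all libraries of a group. The part of these cells in the Fosb and Atf3 difference was not tested.

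The same comparison in rostral libraries did not show a lower level of the family as a whole. Egfr itself, at a log2 fold change of -2.27 (SE 0.30), did not pass there either (edgeR adjusted p = 0.999992). A member that was not called in this fit is therefore not shown to be unchanged. The signs were split, with 4 members lower and 3 higher in the knockout, and 0 of 7 passed the adjusted edgeR test, which called 0 of 17131 genes (0%), with 180 at an unadjusted p under 0.05; DESeq2 called 4 genes and no member. Groups overlapped for all 7, while 4.75% of all genes were lower in knockout without overlap. At an unadjusted p under 0.05, 0 of 7 were lower, against 0.455% of all genes, and the median log2 fold change of the 7 was -0.01.

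Fosb stood at 12.98, 54.7 and 61.7 CPM in knockout rostral libraries 5, 2 and 7, against 32.2, 68.1 and 95.1 CPM in control rostral libraries 1, 3 and 9. One low library in each genotype, knockout 5 and control 1, set most of the spread, and these 2 share the second number of their titles. The log2 fold change was -0.56 (SE 0.62, edgeR adjusted p = 0.999992), with an interval of 2 SE from -1.79 to 0.67. With the second title number as a block the log2 fold change of Fosb was -0.72 (SE 0.23, edgeR adjusted p = 0.999974). Fosb was then the 1 member of 7 at an unadjusted p under 0.05, as were 142 of 17131 genes in that fit. Fos stood at 47.2, 141.6 and 99.996 CPM in knockout rostral libraries, against 79.1, 172.3 and 103.6 CPM in control rostral libraries, with the lowest values in the same 2 libraries. Its log2 fold change was -0.26 (SE 0.43, edgeR adjusted p = 0.999992).

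Fosl2 reached its highest levels here, at 12.98, 48.6 and 11.1 CPM in knockout rostral libraries 5, 2 and 7, against 20.2, 40.5 and 7.42 CPM in control rostral libraries 1, 3 and 9. Knockout library 2 and control library 3 stood far above the others of their groups, and the log2 fold change was 0.14 (SE 0.74, edgeR adjusted p = 0.999992).

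Jun stood at 95.5, 112.2 and 142.8 CPM in knockout rostral libraries, against 105.7, 158.4 and 145.9 CPM in control rostral libraries. Junb stood at 11.9, 17.3 and 22.7 CPM in knockout and 16.1, 21.9 and 16.2 CPM in control rostral libraries. Jund stood at 149.3, 182.7 and 239.5 CPM in knockout and 156.3, 180.4 and 242.0 CPM in control rostral libraries. The 3 Jun genes thus overlapped widely between genotypes, with log2 fold changes of -0.19 (SE 0.21), -0.01 (SE 0.25) and 0.02 (SE 0.24) in that order. Atf3 stood at 3.41, 4.27 and 9.53 CPM in knockout rostral libraries, against 4.43, 6.07 and 6.45 CPM in control rostral libraries. Its highest value was that of knockout library 7, the library with the largest mitochondrial share, and the log2 fold change was 0.07 (SE 0.41, edgeR adjusted p = 0.999992). Endothelial (8 of 8), pericyte (6 of 6), microglia (8 of 8) and meningeal (6 of 6) markers were all higher in knockout rostral libraries, opposite to their caudal direction, as were erythroid markers (7 of 8). Cortical excitatory neuron markers were lower for 8 of 8, also opposite to caudal, striatal markers for 8 of 9 and interneuron and radial glia markers for 5 of 8 each. Of the choroid plexus markers 2 were tested, 1 lower and 1 higher. The part of these cells was not tested.

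Without control rostral libraries 1 and 3, which leaves a single control whose spread is taken to be that of the knockout libraries, no member was called. Fosb then had a log2 fold change of -1.13 (SE 0.78), Fosl2 one of 1.70 (SE 1.00), Jun one of -0.32 (SE 0.26) and Fos one of -0.11 (SE 0.58), and Junb (0.10), Jund (-0.34) and Atf3 (-0.16) changed sign.

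When the counts of both parts were summed for each titled embryo, all 7 members were again lower in the knockout, where 50.2% of all genes had that sign. The adjusted edgeR test passed 0 of 7 members and 6 of 18935 genes (0.0317%). At an unadjusted p under 0.05, 2 of 7 members were lower, against 1.57% of all genes, and the same 2, Fos and Fosb, did not overlap between genotypes, against 5.22% of all genes. The median log2 fold change of the 7 was -0.23. These sums rest on the titled pairing, which other transcripts did not bear out, and they share their caudal and rostral libraries with the comparisons above. Over 1000 autosomal genes, deviations of the 2 libraries of a titled embryo correlated at -0.731 to 0.272. Where the 2 deviate in opposite directions a sum evens them out, so the spread and the overlap of the sums depend on this pairing.

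Fos summed to 115.7, 115.4 and 151.2 CPM in knockout embryos 5, 2 and 7, against 162.9, 170.1 and 230.7 CPM in control embryos 1, 3 and 9. Under the titled pairing the genotypes did not overlap, and the means were 127 ± 20.6 CPM against 188 ± 37.2 CPM (SD, n = 3 each). The log2 fold change was -0.53 (SE 0.18, edgeR adjusted p = 0.999957). Fosb summed to 44.6, 56.8 and 90.3 CPM in knockout embryos, against 93.3, 126.7 and 138.0 CPM in control embryos. The highest knockout sum, that of embryo 7, lay just under the lowest control sum. Its log2 fold change was -0.87 (SE 0.31, edgeR adjusted p = 0.999957). For both genes the exact permutation p was 0.1.

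Atf3 summed to 5.10, 5.18 and 7.68 CPM in knockout embryos, against 6.68, 8.77 and 9.97 CPM in control embryos, so that knockout embryo 7 overlapped the controls. Its log2 fold change was -0.47 (SE 0.21, edgeR adjusted p = 0.999957). Jun (-0.23, SE 0.14), Junb (-0.22, SE 0.16), Jund (-0.18, SE 0.14) and Fosl2 (-0.12, SE 0.35) had overlapping sums and did not pass the test either. Without control embryo 9, Jund was at -0.0292, Jun at -0.0829, Junb at -0.10 and Fos at -0.35, and without knockout embryo 2 Junb was at -0.0844 and Jund at -0.11. With all 12 libraries as separate samples, 0 of 7 members had an unadjusted edgeR p under 0.05, against 381 of 17734 genes. The log2 fold changes were then -0.48 (SE 0.31) for Fos, -0.79 (SE 0.36) for Fosb and -0.40 (SE 0.27) for Atf3. With the libraries as separate samples and control rostral libraries 1 and 3 left out, they were -0.51 (SE 0.36) for Fos, -1.05 (SE 0.37) for Fosb and -0.64 (SE 0.30) for Atf3, none past adjustment. Taken as single libraries, 6 knockout against 6 control, 0 of 7 members separated the genotypes, against 0.0902% of all genes lower without overlap.

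Markers of other cells differed in the sums as well. Striatal markers were lower in knockout for 9 of 9 genes, with a median log2 fold change of -0.53, interneuron markers for 8 of 8 (median -0.23), choroid plexus markers for 4 of 4 tested (median -1.15), endothelial markers for 7 of 8 (median -0.07) and meningeal markers for 6 of 7 (median -0.37). Erythroid markers were higher for 7 of 8, microglia markers for 6 of 8, pericyte markers for 5 of 6 and cortical excitatory neuron markers for 5 of 8. Of all these lists 1 gene passed, Hes5, a Notch target of radial glia, which fell in knockout (log2 fold change -1.23, SE 0.11, edgeR adjusted p = 0.00810), while 4 of the 8 radial glia markers were lower and 4 higher. The part of these cells in the members' sums was not tested.

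Whether the knockout difference itself differed between the parts was tested as an interaction in 1 fit of the 12 libraries. The difference was more negative in caudal libraries for 7 of 7 members, where 51% of all genes had that sign, but 0 of 7 passed and 0 of 17734 genes did (0%), with 486 at an unadjusted p under 0.05. The median term of the 7 was -0.45. Atf3 had the largest term with all libraries, -0.93 (SE 0.48, edgeR adjusted p = 0.998). Those of Fosb (-0.45, SE 0.74) and Fos (-0.45, SE 0.64) were smaller than their SE. A difference between the parts was thus not shown for any member. Without control rostral libraries 1 and 3, the terms of Fosb (0.13), Jun (0.0537) and Jund (0.0238) turned positive, that of Atf3 was -0.70 (SE 0.62), and Fosl2 had the largest, -2.32 (SE 1.27, edgeR adjusted p = 0.687) against -0.76 with all libraries. Markers of other cells had the same sign: endothelial (8 of 8, median -0.78), microglia (8 of 8, median -0.60), pericyte (6 of 6, median -0.60), meningeal (6 of 6, median -1.17), erythroid (7 of 8, median -0.56) and interneuron (6 of 8, median -0.30) markers. Cortical excitatory neuron (7 of 8, median 0.28), striatal (6 of 9, median 0.10) and radial glia (5 of 8, median 0.09) markers had the opposite sign, and choroid plexus markers split 2 to 2. Their part was not tested.

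The caudal and rostral libraries were compared over both genotypes in the same 12-library fit. Of the 7 members, 6 averaged higher in caudal libraries, where 50.2% of all genes had that sign, and Fosl2 lower. At an unadjusted p under 0.05, 5 (Fos, Fosb, Jun, Jund and Atf3) were higher, against 4.14% of all genes. After adjustment edgeR called 0 of 7 members and 0 of 17734 genes (0%), with 1765 genes at an unadjusted p under 0.05. DESeq2 called 74 genes, among them Jun (adjusted p = 0.00413).

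Jun had the firmest difference, with a log2 fold change of 0.72 (SE 0.15, edgeR adjusted p = 0.422), the rank 12 of all genes. Its caudal libraries stood above its rostral libraries without overlap in each genotype, at 185 ± 14.2 against 117 ± 23.99 CPM in knockout and 226 ± 56.0 against 137 ± 27.5 CPM in control (SD, n = 3 each). Without overlap and higher in caudal were 1 of 7 members in knockout libraries (Jun, against 6.33% of all genes) and 4 of 7 in control libraries (Jun, Jund, Fosb and Atf3, against 3.03%).

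The other Jun genes were less marked. Jund averaged 242 ± 23.8 against 190 ± 45.6 CPM in knockout and 306 ± 41.9 against 193 ± 44.2 CPM in control, caudal before rostral, with a log2 fold change of 0.53 (SE 0.15, edgeR adjusted p = 0.430). Junb had a log2 fold change of 0.36 (SE 0.20, edgeR adjusted p = 0.591). The Fos genes spread more. Fosb had a log2 fold change of 1.21 (SE 0.37, edgeR adjusted p = 0.430), with ratios per titled embryo between 1.08 in knockout embryo 2 and 5.62 in knockout embryo 5. Fos had one of 0.95 (SE 0.32, edgeR adjusted p = 0.438), with ratios of 0.613 in knockout embryo 2 and 0.976 in control embryo 3 and above 1 in the other 4. These are the 2 embryos in which Nr2f1, too, was lower in the caudal library (71.3 and 58.6 CPM) than in the rostral one (340.2 and 348.4 CPM). Atf3 had a log2 fold change of 0.57 (SE 0.24, edgeR adjusted p = 0.477).

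Fosl2 went the other way, at -0.72 (SE 0.52, edgeR adjusted p = 0.689), and 1 embryo decided it: without knockout replicate 2 the value was -0.000205. Its ratio was lowest in the same 2 embryos, 0.0656 in knockout embryo 2 and 0.264 in control embryo 3. Without control rostral libraries 1 and 3 the values were 0.66 (SE 0.18) for Jun, 1.02 (SE 0.41) for Fos, 0.93 (SE 0.44) for Fosb, 0.35 (SE 0.16) for Jund, 0.46 (SE 0.31) for Atf3, 0.41 (SE 0.27) for Junb and 0.0618 (SE 0.60) for Fosl2. Leaving out knockout replicate 5 took Junb to 0.18, leaving out control replicate 9 took it to 0.21, and leaving out knockout replicate 7 took Atf3 to 0.90. In the same comparison microglia (7 of 8), erythroid (7 of 8), striatal (7 of 9), radial glia (6 of 8), meningeal (5 of 6), choroid plexus (3 of 4), cortical excitatory neuron (5 of 8) and interneuron (5 of 8) markers were higher, pericyte markers split 3 to 3, and endothelial markers (7 of 8) were lower in caudal libraries, and their part was not tested.

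Across the 12 libraries 6 members varied together and Fosl2 apart from them. Pearson's r of log2 CPM was 0.692 to 0.908 in the 15 pairs among Fos, Fosb, Jun, Junb, Jund and Atf3, with a median of 0.831. Fosl2 had an r of -0.249 to 0.377 with the other 6, with a median of -0.048. Over the 10 libraries left without control rostral 1 and 3, the ranges were 0.674 to 0.931 among the 6 and -0.0792 to 0.445 for Fosl2. These values describe 12 libraries that share genotype, part and dissection, and they are not given as tests.

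**Figure D4:**
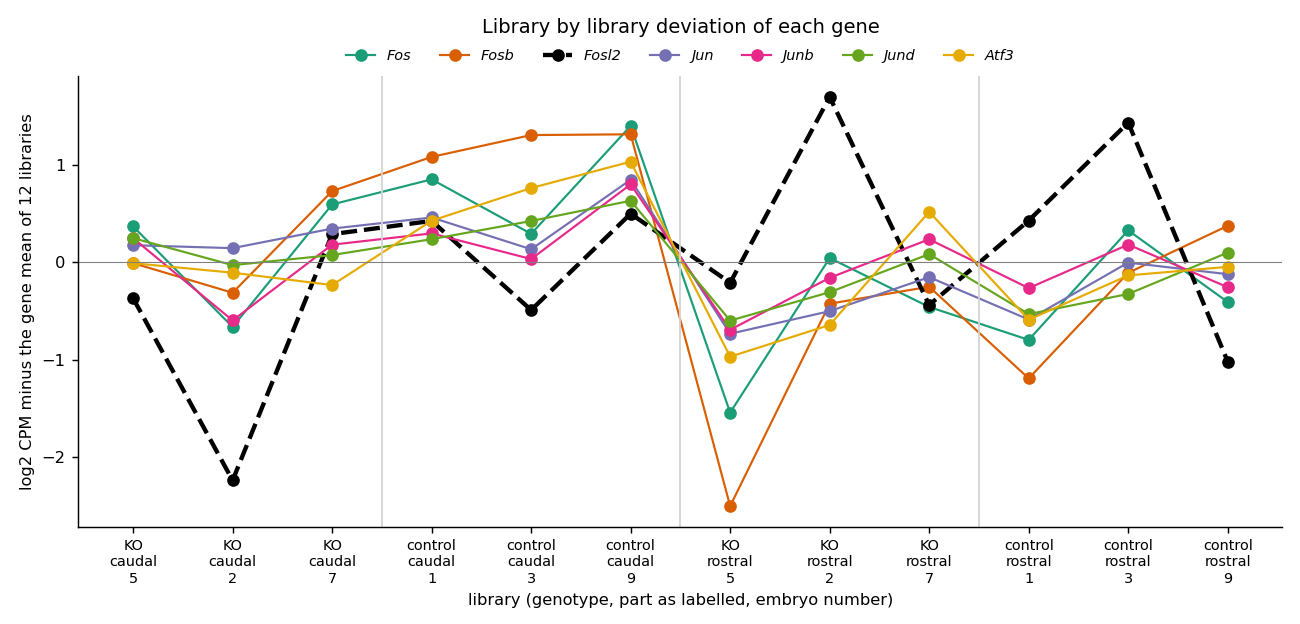
Log2 CPM of each gene, scaled to library totals without TMM factors, minus its mean over the 12 libraries (y axis), by library (x axis: genotype, labelled part and embryo number). Fos, Fosb, Jun, Junb, Jund and Atf3 are each highest in control caudal library 9 and lowest in knockout rostral library 5, whereas Fosl2 (dashed) peaks in knockout rostral library 2 and control rostral library 3.

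The 3 genes most like each member were taken from 12447 with a mean of at least 1 CPM. For the 6 members other than Fosl2, 8 of these 18 entries were on the list of other immediate early genes described further on, which was not tested for enrichment. That list holds 25 genes. A gene near several members counts once for each, and these 6 members varied together. Dusp1, an immediate early phosphatase that switches off MAP kinases, was the nearest gene to Jun (r = 0.960), Jund (r = 0.945) and Fosb (r = 0.926) over 12 libraries. Ier2, an immediate early gene, was nearest to Fos (r = 0.942) and the second nearest to Junb (r = 0.907). Klf4 was nearest to Atf3 (r = 0.929) and the second nearest to Jun (r = 0.939), and Klf2 (r = 0.927) followed for Atf3; both are zinc finger factors on that list. The other 10 entries were not on it. Nfatc2, a calcium-regulated transcription factor, was the third nearest to Fos (r = 0.919) and to Fosb (r = 0.907). Bche, butyrylcholinesterase, came second for Fos (r = 0.923) and Slc1a5, a transporter of neutral amino acids, second for Fosb (r = 0.923). Tsc22d4 was nearest to Junb (r = 0.915), with Rhob, a small GTPase, after Ier2 (r = 0.905). Ccdc96 came after Klf4 for Jun (r = 0.934), Sh2d3c (r = 0.936) and Tcim (r = 0.933) followed for Jund, and Ccl3, a chemokine, came after Klf2 for Atf3 (r = 0.927). The 18 values of r lay between 0.902 and 0.961 without control rostral libraries 1 and 3. Dusp1 ranged from 46.6 to 94.7 CPM, Ier2 from 32.2 to 76.7 CPM and Klf4 from 4.39 to 17.9 CPM, while Bche was low, at 0.549 to 3.23 CPM.

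Fosl2 had other neighbours, with 0 of 3 on that list. Camk2b, the beta subunit of the calcium and calmodulin dependent kinase II of neurons, followed it with an r of 0.988, Zim1, an imprinted zinc finger gene, with 0.978 and Chst8, a sulfotransferase, with 0.967. Zim1 ranged from 1.26 to 14.4 CPM, and Chst8 was low, at 0.0382 to 4.62 CPM. Camk2b was at 301 CPM in knockout rostral library 2 and 259.7 CPM in control rostral library 3, the 2 libraries with the most Fosl2, and at 28.5 CPM in knockout caudal library 2, the one with the least. Fosl2 and Nr2f1 had an r of 0.681 over the same libraries. This was not particular to Fosl2, since Junb (0.678) and Fos (0.656) had a like r with Nr2f1. Jun (0.412), Fosb (0.279), Jund (0.178) and Atf3 (0.164) had a lower one. Without control rostral 1 and 3, which leaves 10, r of Fosl2 was 0.987 with Camk2b and 0.740 with Nr2f1.

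**Figure D5:**
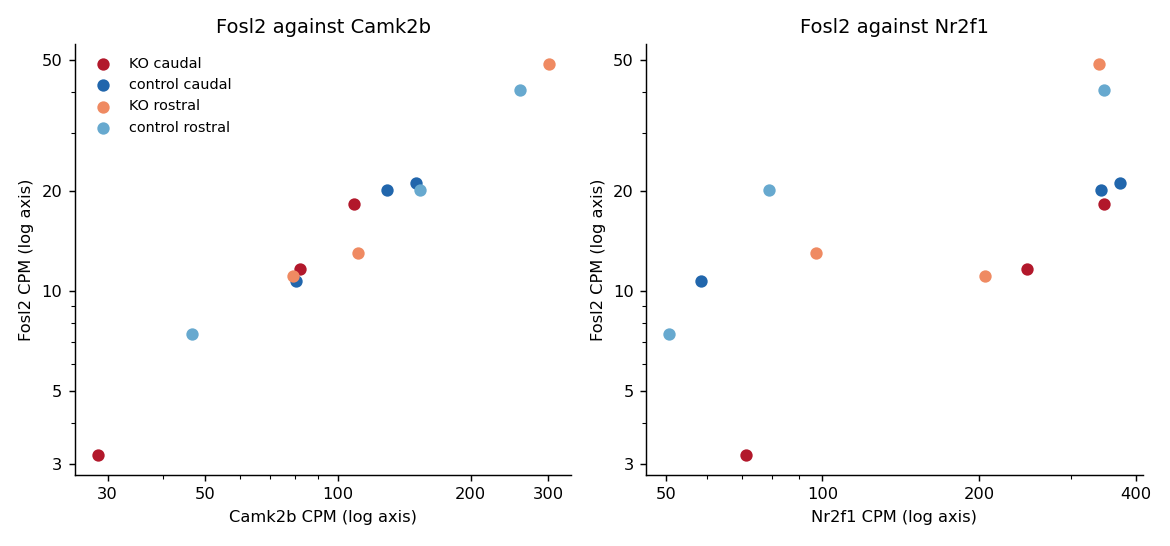
Fosl2 against Camk2b (left) and against Nr2f1 (right), in CPM on log axes, 1 point per library, coloured by genotype and labelled part. Fosl2 follows Camk2b across libraries of all 4 groups (r = 0.988), and the 2 libraries with the most Fosl2 (48.6 and 40.5 CPM) are among those with high Nr2f1.

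The rest of the pathway was described from lists of genes, beside which the median log2 fold change of all genes tested was -0.000359 in the sums, -0.00125 in caudal and 0.000889 in rostral libraries, and 0.000801 between caudal and rostral. The shares of all genes that were lower in knockout were 50.2% in the sums, 50.4% in caudal and 49.8% in rostral libraries, and at an unadjusted p under 0.05 they were 1.57%, 3.13% and 0.455% in the same order. The lists were chosen with earlier results of these data known, so counts over them describe these genes and are not separate support. Of the other immediate early genes, 24 of 25 were tested, and 20 of 24 were lower in knockout sums, 12 of them at an unadjusted p under 0.05, with a median log2 fold change of -0.28. In caudal libraries 20 of 24 were lower, 9 of them unadjusted, with a median of -0.47, and in rostral libraries 17 of 24, 3 of them unadjusted, with a median of -0.20. None passed adjustment. The 2 with the smallest p in the sums were Klf6, a zinc finger factor (log2 fold change -0.44, SE 0.06, edgeR adjusted p = 0.0869), and Plk2, an activity-induced kinase (-0.51, SE 0.07, adjusted p = 0.108). Plk2 stood at 93.8 to 105.3 CPM in knockout caudal libraries, against 152.1 to 173.2 CPM in control caudal libraries, with an adjusted p of 0.0621 there. Its rostral libraries overlapped, at 78.7 to 105.2 CPM in knockout and 101.7 to 128.2 CPM in control (log2 fold change -0.24, SE 0.15). Klf6 stood at 57.8 to 62.2 CPM in knockout rostral libraries, against 68.8 to 86.4 CPM in control rostral libraries. These early genes were also higher in caudal than in rostral libraries for 20 of 24, 10 of them unadjusted, with a median of 0.30, where 50.2% of all genes were higher and 4.14% unadjusted.

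Of the other AP-1 type leucine zipper genes, 9 of 12 were tested in the sums, and 7 were lower in knockout, 2 of them unadjusted, with a median of -0.01. Those 2 encode the small Maf proteins Mafk (-0.32, SE 0.07, edgeR adjusted p = 0.736) and Maff (-0.48, SE 0.15, adjusted p = 0.999957), which lack an activation domain; Maff is also among the early genes above. Maff stood at 6.03 to 7.21 CPM in knockout caudal libraries, against 10.8 to 11.2 CPM in control caudal libraries, and Mafk at 14.7 to 15.9 CPM against 20.0 to 23.0 CPM. Both were without overlap there, with edgeR adjusted p-values of 0.370 and 0.422. Their rostral libraries overlapped between genotypes. Maff stood at 4.74 to 8.23 CPM in knockout rostral and 6.22 to 9.28 CPM in control rostral libraries, and Mafk at 13.5 to 17.9 CPM and 17.4 to 19.6 CPM.

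Upstream of the family, 9 of 12 factors that act on the Fos promoter were lower in knockout sums, 1 of them unadjusted, with a median of -0.02. That one was Srf, the serum response factor, at -0.32 (SE 0.07, edgeR adjusted p = 0.649), with 41.5 to 47.0 CPM in knockout caudal libraries against 52.2 to 64.5 CPM in control caudal libraries. The rostral libraries overlapped for Srf, at 36.7 to 42.5 CPM in knockout and 42.2 to 56.1 CPM in control. Creb1, the gene of CREB, was at 0.10 in the sums (SE 0.05, edgeR adjusted p = 0.999957). Of 18 kinases of the ERK and JNK cascades, 12 were lower, with a median of -0.02, and 0 had an unadjusted edgeR p under 0.05. Rps6ka1, an ERK-activated kinase, was at -0.17 (SE 0.16) and Hras at 0.10 (SE 0.07). These are RNA levels and say nothing of kinase activity.

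Downstream, 9 of 14 tested genes known as AP-1 targets were lower in knockout sums, with a median of -0.04, and 0 had an unadjusted edgeR p under 0.05. Penk, the enkephalin precursor, was at -0.94 (SE 0.42) and Ccnd1, cyclin D1, at -0.15 (SE 0.10), both with an edgeR adjusted p of 0.999957. Of the stress genes that are often induced with Atf3, 13 of 18 tested entries (17 names) were lower, with a median of -0.05 and 0 unadjusted calls, and Asns (-0.30, SE 0.14) and Atf4 (-0.13, SE 0.06) had the smallest p, which were 0.999957 after adjustment. In caudal libraries, where Atf3 was lowest against control, 10 of 16 tested stress genes were lower and 6 higher, with 2 of the lower and 1 of the higher at an unadjusted edgeR p under 0.05.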

How the data were processed

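Messenger RNA was sequenced as paired reads from the 12 libraries, per the labels' protocols. The authors aligned reads with STAR 2.7.8a to GRCm39 and counted them with featureCounts 2.0.3, per the submitters' processing notes. Counting followed GENCODE release 28 and the reverse strand, per the file headers, and a fragment that matched several places or genes was split among them. The values the authors deposited are for this reason estimated counts (expected counts) without normalization, and 21.6% to 23.9% of the genes detected in a library are not at a whole number. Junb and Prdx2 overlap on opposite strands, so the Junb value rests on the stranded counting.

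For testing, counts were rounded and fitted with edgeR 4.0.16 in R 4.3.3 (TMM, filterByExpr, robust quasi-likelihood, Benjamini-Hochberg over all genes tested, adjusted p under 0.05). CPM were computed from unrounded counts and library totals, and a single gene's mean CPM was compared by an exact permutation test (scipy 1.17.1). The SE is the log2 fold change over the square root of F. The alternatives were DESeq2 1.42.0 (its size factors, and its Wald test), a fit without the filter, each titled embryo left out, title numbers or embryos as blocks, limma 3.58.1 voom, and libraries left out. The fits and correlations without the 2 control libraries with transcripts of both sexes, other than the fit for the sums, and the fits of 4 groups for 1 part were added after the data were seen. Nothing says that the libraries came from separate litters, so p-values measure only the spread between these libraries.

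The members and lists were chosen with earlier results of these data known. Genes named were the 7 members, Egfr, the 2 of each list with the smallest p in the sums, and for each member the 3 genes with the highest Pearson correlation of log2 CPM (TMM, prior count 2) over 12 libraries, leaving out predicted, mitochondrial, X and Y genes (all 21 are printed). Of the marker lists, counts, medians and sums are printed, and only the gene that passed is named. Promoters are those of RefSeq (GRCm38.p6); protein sequences were not used here. Over 1000 autosomal genes, the deviations from group means of the 2 libraries of a titled embryo correlated at -0.731 to 0.272, above 0.1 in 1 of 6 embryos, against -0.440 to 0.763 for libraries of different embryos of the genotype, above 0.1 in 7 of 12. The number was therefore not used as a block in the main fits.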

Additional observations from a re-analysis of the deposited data

How the results depend on the processing

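Of 413 member log2 fold changes recomputed under alternatives, 383 kept their sign and their side of the threshold, 4 passed it and 26 changed sign. In caudal libraries the sign of all 7 held under each alternative; members called were 2 by DESeq2 (Fosb and Atf3) and 1 without the filter (Atf3), and in caudal minus rostral 1 by DESeq2 (Jun). For the log2 fold changes in sums, only Fosl2 changed sign: 0.0035 over separate libraries without the 2 control libraries with transcripts of both sexes, and -0.52 to 0.0890 with 1 embryo left out. Without the same 2 libraries the rostral values were 0.10 for Junb, -0.34 for Jund and -0.16 for Atf3, Fosl2 was 0.0618 in caudal minus rostral, and the interaction was 0.13 for Fosb, 0.0537 for Jun and 0.0238 for Jund. With 1 embryo left out, rostral values ran from -0.63 to 0.10 (Fos), -0.86 to 0.84 (Fosl2), -0.28 to 0.20 (Junb), -0.20 to 0.24 (Jund) and -0.54 to 0.34 (Atf3), and interactions from -1.04 to 0.22 (Fos), -1.72 to 0.67 (Fosl2) and -0.34 to 0.0610 (Jun). Genes called in sums, 6 as reported, were 32 by DESeq2, 113 without the filter, 3 over 12 separate libraries, 10 without the 2 control libraries, 3 without the 2 libraries of highest mitochondrial share and 2 (without knockout 5) to 21 (without knockout 2) with 1 embryo left out. In rostral libraries, 0 became 4 by DESeq2, 2 without the filter and 2 in the fit of 4 groups. In caudal libraries, 8 became 71 by DESeq2, 57 without the filter, 3 in the fit of 4 groups and 2 (without knockout 5) to 8 with 1 embryo left out. In caudal minus rostral, 0 became 74 by DESeq2, 2 without the filter and up to 6 (without control 9), and in the interaction also up to 6; the lowest of both was 0. The cause was not tested.

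The titled numbers do not pair the libraries by the check on their deviations. With the titled embryo as a replicate block, 0 members and 0 genes were called in caudal minus rostral and in the interaction; with it as a random effect in limma-voom, 11 genes and 0 members were called in the sums. No sign of a member changed under the block. With the second title number as a block, 0 members were called. Precision is limited by 3 libraries a group; counting error was 7.68% against a spread of 7.75% for Atf3 in knockout caudal libraries, and the smaller part in the other 27 of 28 pairs of member and group.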
